A study of Mus musculus with 64 samples.

Results

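Cathepsins are the proteases of the lysosome, the acidic compartment in which microglia break down what they take up. Most are cysteine proteases, and cystatin C, the secreted product of *Cst3*, is an inhibitor of that class. The long-lived membrane of the lysosome is lined by heavily glycosylated proteins, among them LAMP1, LAMP2 and CD68, the last of which is widely used to mark phagocytic microglia. Microglia are rich in these RNAs at rest, and *Cst3* is among the genes by which they are recognised in the brain and retina.

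Described here are 10 genes of this system, chosen by name from the 25239 genes of the deposited tables: *Ctsb*, *Ctsc*, *Ctsd*, *Ctsl*, *Ctss* and *Ctsz*, which encode cathepsins, the inhibitor gene *Cst3*, and the membrane genes *Lamp1*, *Lamp2* and *Cd68*. All 10 passed the filter on low counts, as did 13584 genes in all, and the lowest count of any of them in any library was 626. Retinal microglia were sorted from male and female mice that were heterozygous for Cx3cr1CreER:R26-tdTomato on a C57BL/6J background and had received tamoxifen eye drops, a treatment that every group shared. The mice were 3, 9 or 18 months old. Eyes were either naive (not injected) or had received AAV2 null, a vector with no transgene, by intravitreal injection (IVT) of 1e10 genome copies (gc) 12 days (D12) or 28 days (D28) before collection. By the methods of the study, this vector also carried a short sequence (io2) that inhibits TLR9, a sensor of viral DNA. No library analysed here came from a vehicle-injected eye, so that the injection and the vector cannot be told apart. The Cx3cr1 gene drives the Cre in microglia, but border macrophages and some monocytes use it too, and cells were chosen by their bright tdTomato. From 1 retina each, 600 cells were sorted, and the question was how age and sex shape the response to AAV.

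The 62 libraries comprised 19 naive, 22 D12 and 21 D28 retinas in 18 groups of age, sex and day. By age, there were 7 naive, 8 D12 and 7 D28 libraries at 3 months, 5, 7 and 7 at 9 months, and 7 of each at 18 months. Totals ranged from 1468478 to 9836173 counts per library, with a median of 4188992. Levels are given as CPM, the counts of a gene scaled to a common library total, which are not corrected for gene length. Changes are log2 fold changes ± SE from edgeR's quasi-likelihood test in a single fit of the 62 libraries, with both sexes weighted equally and Benjamini-Hochberg adjustment over all 13584 genes. A gene passed the test at an adjusted p under 0.05 for days and under 0.1 for ages and interactions. The other eye of each animal went to flow cytometry or staining, so the retinas of a group stand for different animals.

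The sorted cells carried the microglial markers of their label, and these moved with day. All 10 microglial markers (*P2ry12*, *Tmem119*, *Sall1*, *Cx3cr1* and others) were detected at every age and day. Their summed level had a median of 22100 CPM in naive libraries (19500 to 33500), 6060 CPM at D12 (3780 to 17300) and 11300 CPM at D28 (7440 to 20200), and 8, 10 and 9 of the 10 fell at D12 at 3, 9 and 18 months. The summed level of 9 T cell markers had a median of 5.17 CPM in naive libraries (0 to 210), 143 CPM at D12 (4.27 to 472) and 91 CPM at D28 (19.5 to 216), and 7, 8 and 7 of them rose at D12. The 8 markers of monocyte-derived and dendritic cells summed to 48.2 CPM (28.5 to 220), 215 CPM (51.8 to 1430) and 70.8 CPM (44.3 to 129), with 2, 2 and 3 rising at D12. The 6 border macrophage markers summed to 191, 6.16 and 6.84 CPM in the medians, and none of them was at 0 in all libraries of a day. Photoreceptor markers (7) summed to 2140 CPM in naive libraries (663 to 3820), 893 CPM at D12 (452 to 3110) and 1740 CPM at D28 (825 to 2990), and those of Müller glia and astrocytes (5) to 138, 206 and 237 CPM. The part of these cells in the results that follow was not tested. In bulk samples of this kind, fewer cells of a type and less RNA per cell cannot be told apart.

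A few libraries stood apart. The short-to-long index, the median log2 deviation of genes under 1500 bp minus that of genes over 5000 bp, was -1.22 in naive 3-month female replicate 4 and -1.07 in naive 9-month male replicate 2, the lowest values of all 62 libraries (medians by day -0.05 to 0.11). One 18-month male (replicate 4 of D28) is labelled D28 in one place and D12 in another, and was kept at D28. Its *Ctsc* level of 6840 CPM lay above the D12 males of its age (5740 to 6770 CPM) and above the other D28 males (2280 to 2930 CPM). Its *Cst3* level of 30700 CPM lay between the D12 males (7440 to 11500 CPM) and the other D28 males (35100 to 47700 CPM). Calls against naive that change without these libraries are named beside the values concerned. For D28 against D12 and for ages, only the number of calls without them is given, in the section on processing. An 18-month D28 library labelled female went against its label, with *Xist* at 0 CPM and Y-linked genes at 256 CPM. It is not among the 62 libraries.

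The genes lie on several chromosomes of GRCm38 (mm10). *Cst3* spans chr2:148871722-148875692 on the minus strand, *Ctsz* chr2:174427493-174439039 on the minus strand, *Ctss* chr3:95526786-95556403 on the plus strand, *Ctsb* chr14:63122462-63145923 on the plus strand, and *Ctsl* chr13:64359337-64370890 on the minus strand. *Ctsc* spans chr7:88278085-88310888 on the plus strand and *Ctsd* chr7:142375911-142388038 on the minus strand. *Lamp1* spans chr8:13159161-13175338 on the plus strand, *Lamp2* chrX:38401357-38456454 on the minus strand and *Cd68* chr11:69664213-69666153 on the minus strand. Exons of *Ctsl* share 1742 bp with an antisense gene, *Gm47123*, those of *Ctsb* share 774 bp with *Fdft1* on the opposite strand, those of *Ctsd* share 808 bp with *Gm49369* on the same strand, and those of *Lamp1* share 249 bp with *Grtp1*. Whether the counting used strand is not given in the sources used here, so reads over these stretches cannot be assigned with certainty. The study names refGene as its annotation for counting, whereas these overlaps and the exon lengths used below are those of GENCODE M21. Whether each overlapping gene was also in the annotation used for counting is not shown here.

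The 250 bases before the RefSeq start of 4 of these genes are shown, since *Cst3* and *Ctss* changed places as the most abundant of the 10, while *Ctsd* and *Lamp1* hold repeated copies of CACGTG, the E-box core of a motif found upstream of many lysosomal genes. Sequences are those of RefSeq on GRCm38.p6, written in the direction of the gene. The RefSeq starts of *Cst3*, *Ctsd* and *Ctsl* lie inside the spans given above, which take the outermost start annotated by GENCODE, so that the windows of *Cst3* and *Ctsd* lie partly and that of *Ctsl* wholly within those spans. Capitals mark CACGTG in *Ctsd* and *Lamp1* and, in *Ctss*, a pair of GAAA repeats with 2 bases between them, the core read by interferon regulatory factors.
Ctsd (chr7:142387828-142388077, minus strand): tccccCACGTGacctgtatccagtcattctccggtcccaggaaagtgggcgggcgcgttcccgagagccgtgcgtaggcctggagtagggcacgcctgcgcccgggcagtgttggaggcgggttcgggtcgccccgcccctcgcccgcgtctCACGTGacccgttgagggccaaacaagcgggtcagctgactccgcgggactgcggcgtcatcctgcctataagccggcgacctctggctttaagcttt
Lamp1 (chr8:13158911-13159160, plus strand): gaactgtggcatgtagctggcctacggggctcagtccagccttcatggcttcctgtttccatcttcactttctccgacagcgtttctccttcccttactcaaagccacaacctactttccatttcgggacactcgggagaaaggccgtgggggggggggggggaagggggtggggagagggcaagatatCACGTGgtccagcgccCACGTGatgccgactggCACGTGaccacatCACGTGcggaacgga
Ctss (chr3:95526536-95526785, plus strand): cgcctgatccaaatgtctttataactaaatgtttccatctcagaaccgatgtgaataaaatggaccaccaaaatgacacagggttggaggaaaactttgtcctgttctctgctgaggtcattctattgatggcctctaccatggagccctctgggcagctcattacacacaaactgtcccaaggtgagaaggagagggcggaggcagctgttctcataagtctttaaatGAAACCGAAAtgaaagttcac
Cst3 (chr2:148875513-148875762, minus strand): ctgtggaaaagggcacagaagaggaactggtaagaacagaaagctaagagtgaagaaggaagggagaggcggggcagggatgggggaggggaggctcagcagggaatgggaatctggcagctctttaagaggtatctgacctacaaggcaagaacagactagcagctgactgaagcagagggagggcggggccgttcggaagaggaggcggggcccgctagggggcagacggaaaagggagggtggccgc
Both strands of each window were searched for CACGTG, for GAAA repeated after 2 bases, for TTCNNNGAA (the letters of a STAT site) and for GAGGAAGT (those of an ETS site). Windows were found for 9 of the 10 genes, *Ctsb* being the exception. *Ctsd* held CACGTG at 245 and 98 bases before its RefSeq start, *Lamp1* at 61, 45, 28 and 15 bases and *Ctsl* at 236 bases. The GAAA repeat was present 21 bases before the start of *Ctss* and 135 bases before that of *Lamp1*. *Ctsc* held TTCNNNGAA at 236 bases and GAGGAAGT at 151 bases. The windows of *Cst3*, *Ctsz*, *Lamp2* and *Cd68* held none of the 4. Among 32841 windows of the same length, 6.02% held CACGTG, 2.98% the GAAA repeat, 7.02% TTCNNNGAA and 2.44% GAGGAAGT, with matches that may overlap one another.

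*Cst3* was the most abundant of all 25239 genes in naive microglia by mean CPM, and *Ctss* was in place 4. At D12 the order turned, with *Ctss* in place 1 and *Cst3* in place 6, and at D28 *Cst3* was again in place 1 with *Ctss* in place 3. *Ctsd*, *Ctsb*, *Ctsz*, *Ctsc*, *Cd68* and *Ctsl* ranked between 13 and 48 on every day, *Lamp1* at 53 or 54 and *Lamp2* between 87 and 123. On these days the 10 genes together made up 12.7% ± 1.22 (SD, n = 19), 7.97% ± 1.63 (n = 22) and 10.7% ± 1.06 (n = 21) of all counts. *Cst3* alone accounted for 8.24% ± 1.69, 1.69% ± 1.17 and 4.64% ± 1.08. The summed share of the other 9 genes moved the opposite way, from 4.48% ± 0.683 in naive libraries to 6.28% ± 1.08 at D12 and 6.04% ± 0.681 at D28. Mean CPM was higher at D12 for *Ctsb*, *Ctsc*, *Ctsd*, *Ctss*, *Ctsz*, *Lamp1* and *Lamp2*. It was not for *Cd68* (2430 naive, 2210 at D12) or *Ctsl* (1990 and 1950). At D28 *Lamp2* lay below naive (774 naive, 685 at D28).

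Divided by the merged length of the annotated exons, the naive median was 67300 CPM per kb for *Cst3*, 17400 for *Ctss*, 2360 for *Ctsz*, 1900 for *Cd68* and 1700 for *Ctsd*. It was 555 CPM per kb for *Ctsb*, 475 for *Lamp1*, 338 for *Ctsc*, 303 for *Ctsl* and 72.6 for *Lamp2*. Of neighbours in this order, *Cst3* and *Ctss*, *Ctss* and *Ctsz*, and *Ctsl* and *Lamp2* did not overlap between naive libraries, and the other neighbours did. At D12 *Ctss* stood first with 25500 CPM per kb and *Cst3* second with 9640, *Ctss* being higher in 19 of 22 libraries. At D28 the medians were 36000 CPM per kb for *Cst3* and 25300 for *Ctss*, with *Cst3* higher in 19 of 21 libraries. Lengths cover the exons of every annotated transcript, and so understate the level per length of genes with long alternative exons.

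At D12, 7 of the 10 genes passed the test against naive at 3 months (6 higher, 1 lower), 1 at 9 months (lower) and 6 at 18 months (5 higher, 1 lower). Of all genes, 16.7% passed at 3 months (9.45% higher, 7.26% lower), 18.4% at 9 months (10.4% higher, 7.93% lower) and 15.5% at 18 months (9.52% higher, 5.96% lower). The share at 9 months was 1 of 10 and so no larger than that of all genes. The median log2 fold change of the 10 genes was 0.53, 0.20 and 0.42 at the 3 ages, against 0, 0.06 and 0.03 over all genes. The gene that fell at each age was *Cst3*, and it was the only one of the 10 past a 2-fold change by the test against that limit, which 3.35%, 4.11% and 3.27% of all genes passed.

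**Figure D1:**
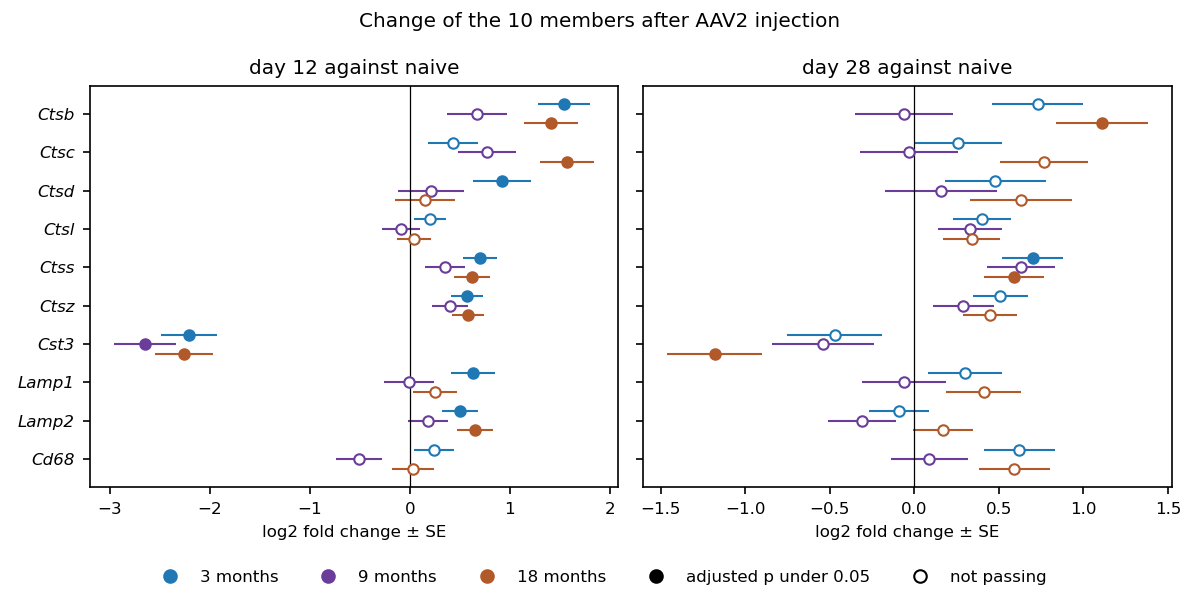
Log2 fold change ± SE against naive for the 10 genes at D12 and at D28, by age, with filled points for genes past an adjusted p of 0.05 and a different scale on each horizontal axis. *Cst3* lies between -2.65 and -2.21 at D12, while most others lie between 0 and 2.

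The inhibitor gene *Cst3* gave the largest change of the 10 at D12 at each age. At 3 months, naive retinas ranged from 43900 to 106000 CPM with a median of 82300, D12 retinas from 12000 to 28800 with a median of 14900, and D28 retinas from 44600 to 61800 with a median of 56000. No D12 retina of this age reached the lowest naive retina, nor the lowest D28 retina. The 5 naive retinas at 9 months gave 66600, 91100, 101000, 85200 and 44600 CPM, those at D12 ranged from 5160 to 43500 (median 9950) and those at D28 from 39200 to 63100 (median 45500). At 18 months, the range was 75700 to 95000 CPM in naive retinas (median 85500), 7440 to 43800 at D12 (median 11600) and 24700 to 47700 at D28 (median 36000). Naive and D12 retinas thus did not overlap at any age, a property of 6.71%, 4.67% and 2.36% of all genes at 3, 9 and 18 months.

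**Figure D2:**
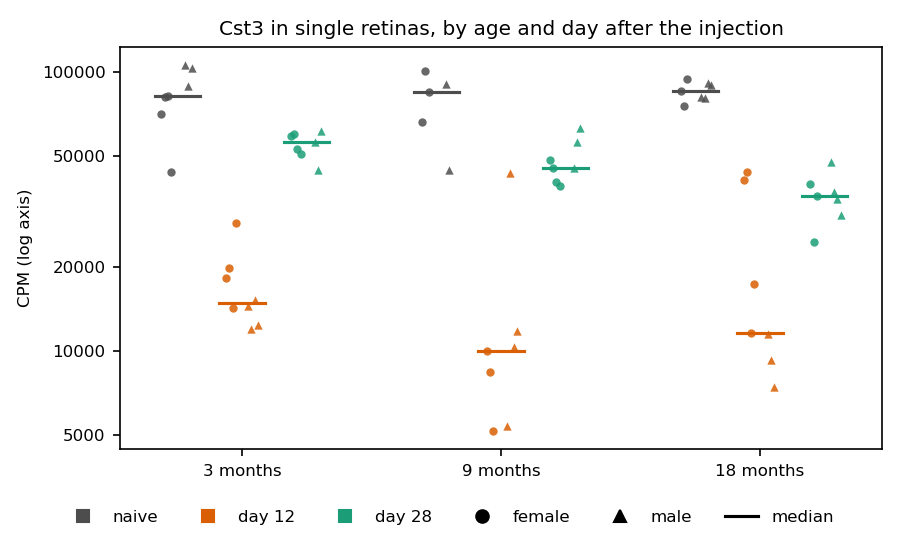
CPM of *Cst3* on a log axis in single retinas, by age and day, with 1 point for each of the 62 libraries. All D12 points lie below the naive points of their age, and D28 points lie mostly between 24700 and 63100 CPM.

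The log2 fold change of *Cst3* at D12 was -2.21 ± 0.28 at 3 months (4.63-fold lower, adjusted p = 1.65e-08), -2.65 ± 0.31 at 9 months (6.29-fold lower, 5.48e-09) and -2.26 ± 0.29 at 18 months (4.79-fold lower, 5.78e-08). Against a 2-fold limit, its adjusted p was 0.000287, 1.67e-05 and 0.00038. The fall was present on each collection day. It came to -2.39, -2.27 and -1.76 at 3, 9 and 18 months among libraries of the first day (adjusted p = 0.0123, 0.00968 and 0.0311) and to -2.11, -2.82 and -2.81 among those of the second. Without the 2 naive libraries of lowest index it was -2.30, -2.86 and -2.24, with 1 naive 9-month male left, which was assumed to vary as the other groups do.

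The D12 retinas with most *Cst3* were also those with most microglial marker RNA. At 9 months, male replicate 2 held 43500 CPM of *Cst3*, a summed microglial level of 15000 CPM and 136 CPM of T cell markers, near the D12 median of 143 CPM. At 18 months, female replicates 1 and 2 held 40900 and 43800 CPM of *Cst3*, 17300 and 13600 CPM of microglial markers and 4.27 and 15.2 CPM of T cell markers. Without that 9-month male the 9-month log2 fold change of *Cst3* was -3.06. Among the remaining D12 retinas the highest *Cst3* level was 28800 CPM, at 3 months.

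At D28, *Cst3* remained below naive at 18 months, at -1.18 ± 0.28 on the log2 scale (2.26-fold lower, adjusted p = 0.0057). Values were -0.47 ± 0.28 at 3 months (adjusted p = 0.503) and -0.54 ± 0.30 at 9 months (0.341), neither of which passed. Whether the change from naive differed between 18 and 3 months at D28 was tested directly, and the difference of -0.70 ± 0.39 did not pass (adjusted p = 1). The 18-month value was -0.94 among libraries of the first collection day (adjusted p = 0.251), -1.37 among those of the second (0.00154) and -1.12 without the library with 2 day labels (0.0143). From D12 to D28, *Cst3* rose by 1.74 ± 0.27 at 3 months (adjusted p = 6.08e-05), by 2.11 ± 0.29 at 9 months (1.58e-06) and by 1.08 ± 0.28 at 18 months (0.0201).

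*Ctss*, which encodes a cathepsin that also works at neutral pH and trims the invariant chain of MHC class II, was the most abundant protease of the set. Its naive level ranged from 20900 to 25600 CPM at 3 months (median 23600) and from 15400 to 26700 at 18 months (median 23900), and the 5 naive retinas at 9 months gave 17600, 23400, 24900, 23600 and 25900 CPM. D12 retinas ranged from 28600 to 39500 CPM (median 36900), 18800 to 36400 (median 31100) and 20000 to 41600 (median 32100) at 3, 9 and 18 months. The groups were separate at 3 months and overlapped at 9 and 18 months. *Ctss* rose by 0.70 ± 0.17 (1.63-fold, adjusted p = 0.00239) at 3 months and by 0.62 ± 0.18 (1.54-fold, 0.0116) at 18 months, and its change of 0.35 ± 0.20 at 9 months did not pass (0.226). Within collection days it passed at 3 months on the second (0.73, 0.0264) and not on the first (0.74, 0.249), and at 18 months on neither (0.87 and 0.53, 0.0789 and 0.075).

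Unlike *Cst3*, *Ctss* was as high at D28 as at D12. D28 retinas ranged from 33200 to 37500 CPM (median 35300) at 3 months, 28600 to 37900 (median 35000) at 9 months and 26800 to 35900 (median 32600) at 18 months, each range lying above all naive retinas of its age. Of all genes, 2.66%, 3.16% and 2% were separate in this way. *Ctss* rose by 0.70 ± 0.18 (1.62-fold, adjusted p = 0.0167) at 3 months and by 0.59 ± 0.18 (1.5-fold, 0.0405) at 18 months, while 0.63 ± 0.20 at 9 months gave an adjusted p of 0.0601. These calls lay near the limit. That at 3 months was lost without naive male replicate 2 or 3 or D28 male replicate 3 (adjusted p of 0.0536, 0.0568 and 0.0519), and that at 18 months without any one of 11 of the 14 libraries (up to 0.141). The latter was also lost without the 2 naive libraries of lowest index (0.0523) and with the library of 2 day labels placed at D12 (0.0545). Neither passed within a collection day, with 0.66 and 0.71 at 3 months (adjusted p = 0.857 and 0.0543) and 0.8 and 0.5 at 18 months (0.108 and 0.21).

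*Ctsb*, which encodes an abundant endopeptidase of the cysteine class, rose most among the 10 at 3 months. Its naive retinas held 1820 to 8800 CPM there (median 2850), D12 retinas 5560 to 12500 (median 8780) and D28 retinas 3760 to 5990 (median 5240). One naive retina, the female replicate 4 of low index, held the 8800 CPM and overlapped with D12. At 9 months the naive retinas gave 8630, 2150, 3070, 2690 and 10500 CPM, D12 ranged from 5960 to 11600 (median 7660) and D28 from 3940 to 6140 (median 4740). At 18 months, naive retinas lay within 3160 to 3970 CPM (median 3520), below every D12 retina (4190 to 17600, median 7090) and every D28 retina (4680 to 13800, median 7010).

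*Ctsb* rose at D12 by 1.54 ± 0.26 at 3 months (2.92-fold, adjusted p = 1.29e-05) and by 1.41 ± 0.27 at 18 months (2.65-fold, 0.000111). Its change of 0.67 ± 0.30 at 9 months did not pass (0.108), but passed without the 2 naive libraries of lowest index (1.44, adjusted p = 0.0014). It also passed without naive female replicate 1 (1.01, 0.0154), the retina with 8630 CPM, and on the first collection day (1.3, 0.0194) but not on the second (0.52, 0.291). The rise at D12 was found on both collection days at 3 months (2.26 and 1.07, adjusted p = 0.00036 and 0.00919) and at 18 months (1.31 and 1.36, 0.0107 and 0.000297). At D28 *Ctsb* passed at 18 months, at 1.11 ± 0.27 (2.16-fold, adjusted p = 0.00596), or 0.94 (0.0246) without the library with 2 day labels, and passed on the second collection day (1.33, 0.00152) but not on the first (0.78, 0.124). It gave 0.73 ± 0.27 at 3 months (0.144), which passed (adjusted p = 0.0217) without naive female replicate 4.

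*Ctsc* encodes dipeptidyl peptidase 1, which activates the granule proteases of immune cells. Its naive retinas held 1670 to 5680 CPM at 3 months (median 2040), 1220, 1920, 1910, 2570 and 5870 CPM at 9 months, and 1180 to 2180 CPM at 18 months (median 1830). At D12 it ranged from 1640 to 4870 (median 2980), 2680 to 6310 (median 4490) and 2260 to 6770 (median 5140), so that naive and D12 retinas were separate at 18 months and overlapped at the younger ages. *Ctsc* rose at 18 months by 1.57 ± 0.27 (2.98-fold, adjusted p = 1.34e-05), with 1.5 and 1.73 on the first and second collection day (0.00273 and 7.12e-06). At 3 months the value was 0.43 ± 0.25 (0.276) and at 9 months 0.77 ± 0.29 (0.0576), the latter passing at 1.27 (0.00883) without the 2 naive libraries of lowest index and at 0.78 (0.0394) without the library of 2 day labels. Within the collection days at 9 months it was 2.06 on the first (adjusted p = 0.000506) and 0.02 on the second (1).

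The difference between 18 and 3 months in the D12 change of *Ctsc* was 1.15 ± 0.36, with a p of 0.00239 that did not pass adjustment over all genes (0.171). At 9 months *Ctsc* fell from D12 to D28 by 0.80 ± 0.26 (adjusted p = 0.0421). D28 levels of 2090 to 2980 CPM at 3 months (median 2520), 1530 to 3210 at 9 months (median 2740) and 2070 to 6840 at 18 months (median 2280) overlapped with naive ones at each age, and the highest of them is the library with 2 day labels. The 18-month change of 0.77 at D28 (adjusted p = 0.0765) passed without the 2 naive libraries of lowest index (0.78, 0.0478) and with the library labelled female included (1.06, 0.00991).

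The carboxypeptidase gene *Ctsz* showed a smaller rise. Medians of 3030, 3400 and 3470 CPM in naive retinas at 3, 9 and 18 months compared with 4660, 4810 and 4850 CPM at D12 and 4200, 4300 and 4620 CPM at D28, with overlapping ranges. It rose at D12 by 0.57 ± 0.16 at 3 months (1.48-fold, adjusted p = 0.00683) and by 0.58 ± 0.16 at 18 months (1.49-fold, 0.00848), and its 0.40 ± 0.18 at 9 months did not pass (0.117). Within collection days it passed at 18 months on the second (0.67, 0.0111) and not on the first (0.37, 0.414), and at 3 months on neither (0.79 and 0.45, 0.147 and 0.176). At D28 it gave 0.51, 0.29 and 0.45 (adjusted p = 0.0697, 0.403 and 0.0959), the first of which passed without naive female replicate 4 (0.58, 0.044).

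*Ctsl*, the gene of a broad endopeptidase, passed in none of these comparisons in edgeR. Its medians were 1940, 1820 and 2170 CPM in naive retinas, 1980, 1680 and 1650 CPM at D12 and 2280, 2090 and 2480 CPM at D28. The log2 fold changes were 0.20, -0.09 and 0.04 at D12 and 0.40, 0.33 and 0.34 at D28, with adjusted p-values of 0.252, 0.358 and 0.28 at D28. Its reads may include those of the antisense gene.

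*Ctsd* encodes the main aspartic protease of lysosomes, a class that cystatins do not inhibit. Its spread between retinas was wide. Naive levels ran from 2680 to 8720 CPM at 3 months and from 3600 to 12400 at 18 months, and D12 levels from 4660 to 13000, 2380 to 12400 and 2080 to 11300 at the 3 ages. D28 levels ran from 4540 to 6160, 4050 to 6520 and 4330 to 10100. The D28 changes of 0.48, 0.16 and 0.63 did not pass (adjusted p = 0.533, 0.87 and 0.249). At 18 months the D28 change passed on the second collection day (1.24, 0.0128) and was -0.17 on the first. *Ctsd* rose at 3 months at D12 by 0.92 ± 0.29 (1.89-fold, adjusted p = 0.0207), while 0.21 at 9 months and 0.15 at 18 months did not pass. The call was lost without D12 male replicate 2, D12 female replicate 3 or naive male replicate 3 (adjusted p from 0.059 to 0.0719) and within either collection day (0.249 and 0.127).

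**Figure D3:**
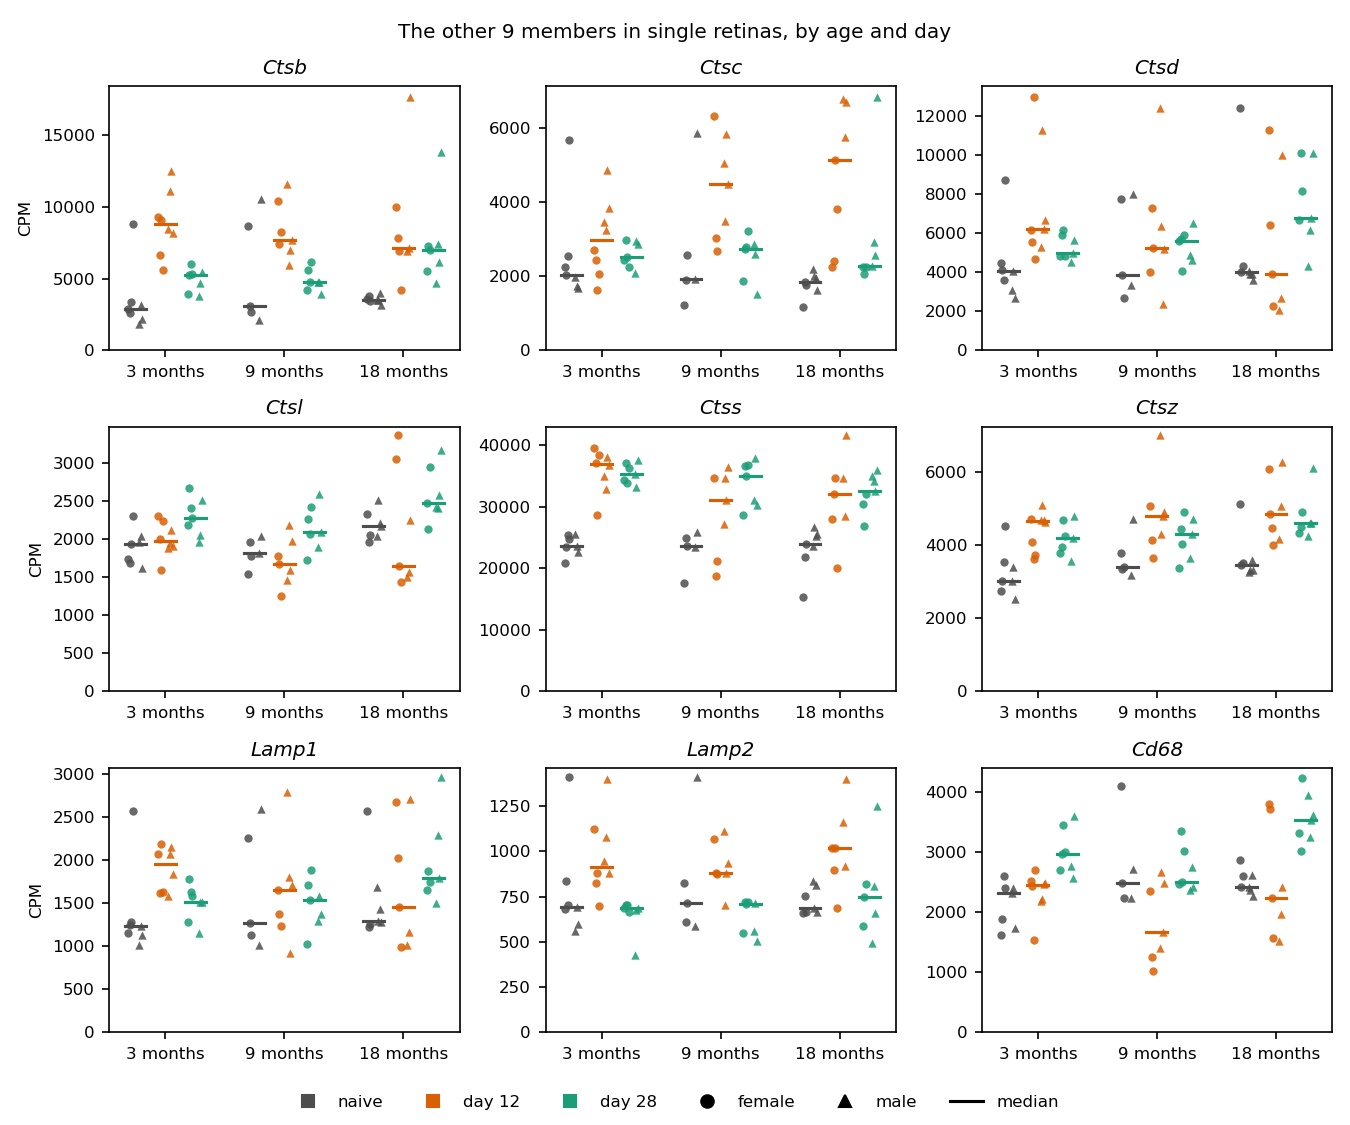
CPM on a linear axis of the other 9 genes in single retinas, by age and day. Naive *Ctss* stays within 15400 to 26700 CPM, and *Ctsb* and *Ctsc* each have 2 or more naive retinas far above the rest.

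The membrane genes gave smaller changes. *Lamp1*, which encodes a main glycoprotein of the lysosomal membrane, had medians of 1240, 1270 and 1300 CPM in naive retinas, 1950, 1650 and 1460 CPM at D12 and 1510, 1540 and 1790 CPM at D28. It rose at D12 at 3 months by 0.63 ± 0.22 (1.55-fold, adjusted p = 0.0368), a call lost without any one of 11 of the 15 libraries and within either collection day (0.126 and 0.279). *Lamp2*, needed for chaperone-mediated autophagy and for fusion with autophagosomes, gave 693, 716 and 688 CPM in naive retinas, 913, 881 and 1020 CPM at D12 and 686, 707 and 748 CPM at D28. It rose by 0.50 ± 0.18 at 3 months (1.41-fold, adjusted p = 0.0465), a call lost without any one of 10 of the 15 libraries. This call was also lost within either collection day (0.9 and 0.19, adjusted p = 0.0796 and 0.723). On uncorrected counts with collection day as a term, neither *Lamp1* (0.56, 0.0732) nor *Lamp2* (0.38, 0.158) passed at 3 months. At 18 months *Lamp2* rose by 0.65 ± 0.18 (1.57-fold, 0.0103). The 18-month rise passed among libraries of the second collection day (0.63, 0.0423) and not of the first (0.73, 0.0918).

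*Cd68* passed at neither day in the edgeR fit of all 62 libraries. With DESeq2 it passed at D28 at 3 months (0.62, adjusted p = 0.0408) and at 18 months (0.59, 0.0445). In edgeR with only the libraries compared it passed at D28 at 3 months (0.63, 0.0154). Its naive retinas held 1610 to 2590 CPM at 3 months, 4090, 2240, 2480, 2240 and 2710 CPM at 9 months and 2260 to 2870 CPM at 18 months. The D12 ranges were 1530 to 2700, 1020 to 2660 and 1510 to 3790 CPM and the D28 ranges 2570 to 3600, 2360 to 3340 and 3010 to 4230 CPM. Only at 18 months at D28 did all retinas exceed every naive one, and there the change of 0.59 gave an adjusted p of 0.0891. At D12 the log2 fold changes were 0.24, -0.51 and 0.03, none of which passed, although the 9-month value reached -0.88 (0.0019) without D12 female replicate 1. The 9-month value also passed with totals alone as scaling (-0.6, 0.0245) and with the short-to-long index as a covariate (-0.61, 0.0371).

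At D28, 1 of the 10 genes passed at 3 months (*Ctss*, higher), none at 9 months and 3 at 18 months (*Ctsb* and *Ctss* higher, *Cst3* lower). Of all genes, 2.76% passed at 3 months (1.99% higher, 0.766% lower), 4.07% at 9 months and 4.85% at 18 months (3.17% higher, 1.68% lower). At 9 months edgeR gave an unadjusted p under 0.05 for 1 gene, and DESeq2 called 1. The median log2 fold change of the 10 was 0.44, 0.03 and 0.52, against -0.01, 0.04 and 0.02 over all genes. Between D12 and D28, *Cst3* passed at each age, alone at 3 and 18 months and with *Ctsc* at 9 months, where 2.78%, 2.83% and 9.35% of all genes passed at 3, 18 and 9 months. The D12 and D28 comparisons share their naive retinas, and their values are therefore set side by side and not correlated.

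The balance of *Cst3* RNA to that of 3 cysteine cathepsins, *Ctsb*, *Ctsl* and *Ctss*, combines both directions of change. As a ratio of CPM, it had a median of 2.92 in naive retinas (1.16 to 4.01), 0.279 at D12 (0.121 to 1.01) and 1.13 at D28 (0.581 to 1.74). Every naive retina had more *Cst3* counts than counts of the 3 proteases together. D12 and naive retinas did not overlap on this ratio. Its parts are the levels already given, and *Cst3* alone was separate at each age, so the ratio adds no support to those changes. *Ctsc* and *Ctsz* are not in it. By age, the medians were 2.92, 0.34 and 1.34 at 3 months, 3.03, 0.255 and 1.21 at 9 months and 2.91, 0.269 and 0.849 at 18 months. The ratio is one of RNA, uncorrected for length, and protein was not analysed here.

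**Figure D4:**
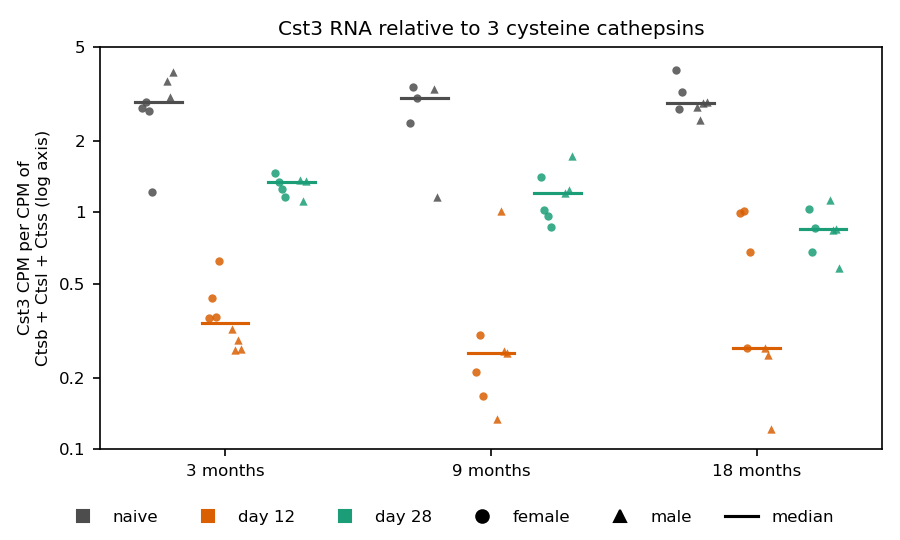
CPM of *Cst3* per CPM of *Ctsb*, *Ctsl* and *Ctss* summed, on a log axis, in single retinas by age and day. D12 retinas reach at most 1.01, and naive retinas start at 1.16.

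Age alone did not change any of the 10 genes past the threshold. Between 9 and 3 and between 18 and 3 months, no gene of the set passed in naive retinas (0% and 0.103% of all genes), at D12 (1.71% and 1.97%) or at D28 (0% and 0.0442%). In edgeR, unadjusted p-values under 0.05 numbered 1 and 0 in naive retinas, 4 and 1 at D12 and 0 and 2 at D28. DESeq2 called none in naive retinas or at D28 and 1 over both comparisons at D12. The lowest adjusted p was 0.781 in naive retinas, 0.141 at D12 and 0.997 at D28. Naive *Cst3* medians of 82300, 85200 and 85500 CPM and *Ctss* medians of 23600, 23600 and 23900 CPM at 3, 9 and 18 months were close to each other.

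Nor did the change from naive pass a test of difference between ages. For 9 minus 3 and 18 minus 3 months, edgeR called 0 of the 10 genes at D12 (0.0368% and 0.191% of all genes) and at D28 (0% and 0%), with unadjusted p-values under 0.05 for 2, 1, 1 and 0 genes, and DESeq2 called 1 over the 4 tests. The count of 1 at 9 months against 7 and 6 at the other ages is therefore not a tested difference. The *Ctsb* changes at D12 differed by -0.87 ± 0.39 between 9 and 3 months (adjusted p = 0.733).

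By sex, 2 of the 10 genes passed in females and 5 in males at D12 at 3 months (7.38% and 7.21% of all genes), 1 and 1 at 9 months (11.2% and 4.52%), and 2 and 4 at 18 months (3.45% and 8.94%). At D28 none passed in either sex taken alone, where 0.788% and 0.537%, 1.55% and 0.133%, and 1.38% and 1.29% of all genes did. At 3 months, *Cst3* ranged from 43900 to 82300 CPM in naive females and from 89000 to 106000 in naive males, and at D12 from 14300 to 28800 in females and from 12000 to 15200 in males. The log2 fold changes were -1.63 in females and -2.80 in males, a difference of -1.17 ± 0.54 (adjusted p = 0.863). *Ctsc* changed by -0.33 in females and 1.19 in males, a difference of 1.52 ± 0.51 (adjusted p = 0.863). Naive female replicate 4, the library of lowest index, held 5680 CPM of *Ctsc* (others 2040 to 2550), and D12 females held 1640 to 2710 CPM. The 43900 CPM of *Cst3* came from the same retina. Its part in both sex differences was not tested.

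The sign of the sex difference in *Cst3* was not the same at each age. At 9 months, females and males changed by -3.43 and -1.88 (difference 1.55 ± 0.63, adjusted p = 0.696), and at 18 months by -1.47 and -3.05 (difference -1.59 ± 0.57, adjusted p = 0.44). The 9-month males had only 2 naive retinas, at 91100 CPM and, in replicate 2 of low index, 44600 CPM. Their D12 replicate 2 held 43500 CPM (others 5370 to 11800). At 18 months, D12 females ranged from 11600 to 43800 CPM and D12 males from 7440 to 11500. The part of single retinas in these signs was not tested. None of the 10 genes passed an interaction of sex and day, at D12 (0%, 0.00736% and 0% of all genes at 3, 9 and 18 months) or at D28 (0% at each age). Unadjusted p-values in edgeR were under 0.05 for 4, 1 and 1 genes at D12 and for 0, 1 and 0 at D28, and DESeq2 called 0.

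Around the 10 genes, 97 others of the lysosome were followed in 6 lists, of which 96 were tested. At D12, 38 rose and 6 fell at 3 months, 21 rose and 8 fell at 9 months, and 22 rose and 3 fell at 18 months. As shares of those tested, 39.6%, 21.9% and 22.9% rose, beside 9.45%, 10.4% and 9.52% of all genes. At D28 there were 6, 6 and 11 that rose and 1, 0 and 1 that fell, where 2.76%, 4.07% and 4.85% of all genes passed in either direction. From D12 to D28, 1 rose and 4 fell at 3 months, 1 rose and 15 fell at 9 months, and 1 rose and 2 fell at 18 months, beside 2.78%, 9.35% and 2.83% of all genes in either direction.

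**Figure D5:**
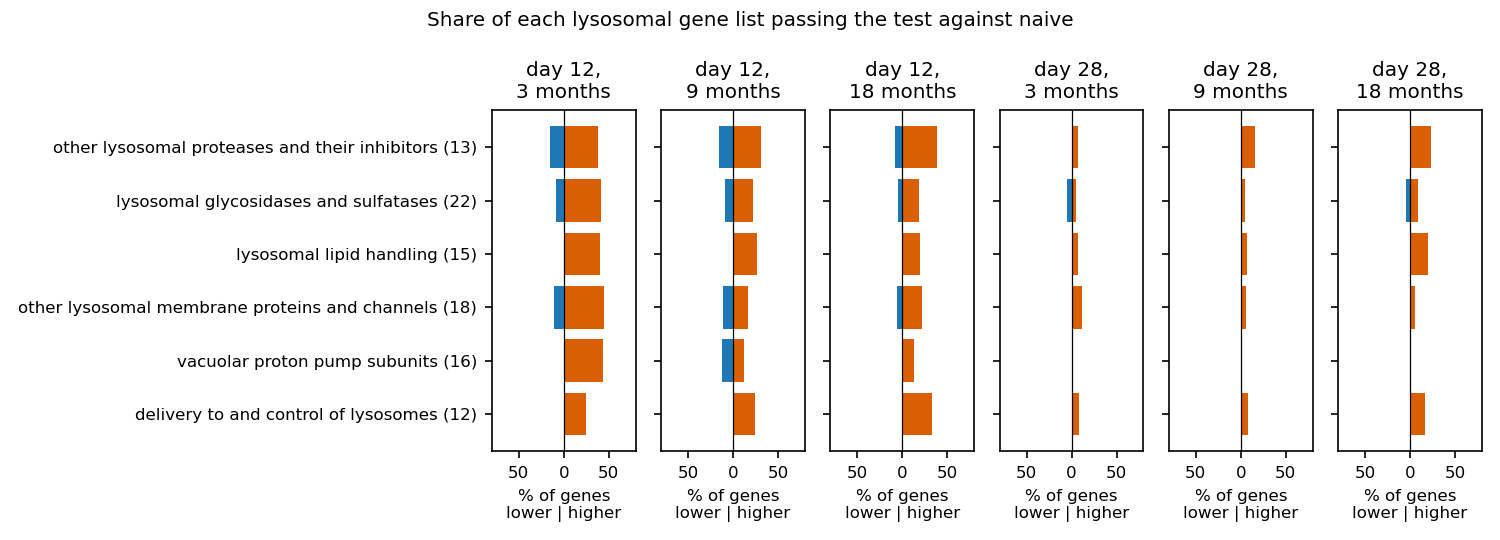
Share of each of the 6 lists that passed the test against naive, lower to the left and higher to the right, for D12 and D28 at each age. At D12 at 3 months 8 of 18 membrane proteins and 7 of 16 proton pump subunits were higher, beside 9.45% of all genes, and no pump subunit passed at D28.

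Of 13 other proteases and inhibitors tested, 5, 4 and 5 rose at D12 and 2, 2 and 1 fell at 3, 9 and 18 months. Beside these counts and those of the lists that follow, 9.45%, 10.4% and 9.52% of all genes rose at D12. Those that fell made up 7.26%, 7.93% and 5.96% of all genes. *Cst7*, the gene of cystatin F, an inhibitor that acts inside the cell on *Ctsc* and related proteases, moved opposite to *Cst3*. From a mean of 124 CPM in naive 3-month retinas (54.9 to 176) it came to 1310 CPM at D12 (801 to 1640) and 869 CPM at D28 (472 to 1200). It rose by 3.54 ± 0.34, 3.94 ± 0.42 and 1.86 ± 0.32 at D12 (adjusted p = 1.02e-11, 2.15e-10 and 1.8e-05), and by 2.99, 3.61 and 2.02 at D28, passing at each age. The cytosolic inhibitor gene *Cstb* rose at D12 by 1.65, 1.15 and 1.26. *Ctsf*, a further cysteine cathepsin, fell by 0.86, 1.10 and 1.19, and *Ctso* fell by 0.80 and 0.78 at 3 and 9 months and gave -0.37 at 18 months.

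Among 22 glycosidases, sulfatases and their helpers, 9, 5 and 4 rose at D12 and 2, 2 and 1 fell. *Gla*, the gene of alpha-galactosidase A, had a mean of 8.79 CPM in naive 3-month retinas and 56.3 CPM at D12, and rose by 2.99, 2.03 and 2.36 at the 3 ages. *Gnptab*, needed for the mannose 6-phosphate tag of lysosomal enzymes, rose by 1.89, 2.11 and 1.08. *Arsb*, which encodes a sulfatase, fell by 1.08, 0.81 and 0.81.

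Of 15 genes of lysosomal lipid handling, 6, 4 and 3 rose at D12 and none fell. *Npc2*, which carries cholesterol out of the lysosome, rose at D12 by 1.05, 0.71 and 0.79 and at D28 by 0.88, 0.67 and 0.84, passing each time. *Scarb2*, the receptor that delivers glucocerebrosidase, rose by 1.03 and 0.72 at D12 at 3 and 9 months and gave 0.22 at 18 months. Of 18 further membrane proteins and channels, 8, 3 and 4 rose and 2, 2 and 1 fell. *Cd63*, a tetraspanin gene of late endosomes, rose at D12 by 1.96, 1.51 and 0.99 and at D28 by 1.80, 1.35 and 1.35, and *Clcn7*, a chloride-proton exchanger gene, rose at D12 by 2.14 and 1.94 at 3 and 9 months. *Laptm4b* and *Laptm5*, which encode lysosomal transmembrane proteins, fell at D12 by 0.73 and 0.44 at 3 months and by 0.85 and 0.67 at 9 months, and gave 0 and -0.31 at 18 months.

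Of 16 subunits of the vacuolar proton pump, which acidifies the lysosome, 7, 2 and 2 rose at D12, 0, 2 and 0 fell, and none passed at D28. The 2 of 16 that rose at 9 and 18 months were near the share of all genes that rose (10.4% and 9.52%). The 2 that fell at 9 months were near the 7.93% of all genes that fell. *Atp6v1a*, the catalytic subunit gene, rose by 1.41 and 0.93 at 3 and 9 months. Of 12 genes for delivery to lysosomes and their control, 3, 3 and 4 rose and none fell. *Grn*, the progranulin gene, rose at D12 by 0.99, 1.11 and 0.80 and gave -0.01, -0.23 and -0.01 at D28. *Igf2r*, the large mannose 6-phosphate receptor, was nearly absent from naive 3-month retinas (0 to 1.67 CPM) and reached 3.11 to 23.9 CPM at D12 and 0.19 to 6.1 CPM at D28.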

How the data were processed

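Microglia from single retinas were measured by poly-A RNA-seq with SMART-Seq v4 and Nextera XT kits. Per the labels and methods, the authors made reads with bcl2fastq 2.20, aligned them to mm10 with STAR 2.7.8a, counted them per gene with featureCounts, and adjusted counts for collection day with ComBat_seq in R 4.2.2. The deposited tables hold whole-number counts of 25239 genes, uncorrected (64 libraries) and batch-corrected (63 libraries). No per-sample column was unmapped (0). Groups came from the deposited labels. The batch-corrected counts of 62 libraries were used here. An 18-month D28 library labelled female, whose sex-linked genes went against that label and which the rule for these genes sets aside, and a 9-month male D28 library, in the uncorrected table only, were left out.

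Counts were scaled by TMM, filtered by filterByExpr and tested with glmQLFTest in edgeR 4.0.16 (R 4.3.3), with 18 group means and no batch term. TMM factors ranged from 0.845 to 1.276. Steps were tested on simulated data. No 2 libraries of a group were identical. Replicate numbers were checked as a pairing: deviations from group means had a mean correlation of -0.0114 over 464 same-number pairs of libraries and 0.00407 over 1348 other pairs, so no block entered the fit.

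The 10 genes were named in every comparison, together with the 2 genes of smallest p in each direction per lysosomal list at D12 at 3 months. The result of 1 gene so named is not reported here. Members, lists and tests were chosen with earlier results of these data known. Positions and lengths come from GENCODE M21, and 250-base windows from RefSeq on GRCm38.p6. Alternatives were DESeq2 1.42.0, its size factors, no scaling beyond totals, no filter, a 2-fold limit, single sexes, only the libraries compared, uncorrected counts with and without collection day, a replicate block, other handling of 2 doubtful libraries and each library left out. Those by collection day and by short-to-long index were added after the data were seen. Amplified reads are not independent molecules, so depth bounds counting error only. Flow cytometry and imaging were not analysed here.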

Additional observations from a re-analysis of the deposited data

Results flagged for a closer look

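Among 90 values of the 10 genes in groups of 4 retinas, 8 held a retina far from the other 3, by the gap to its neighbour over the range of the group (Dixon's limit for 4 values), and chance gives about 1 in 20. The 3-month naive female replicate 4 was highest in *Ctsb* (8800 CPM, others 2620 to 3360), *Ctsc* (5680 CPM, others 2040 to 2550) and *Lamp1* (2570 CPM, others 1160 to 1280), and it had the lowest short-to-long index of all libraries, -1.22. The 9-month D12 male replicate 2 was highest in *Cst3* (43500 CPM, others 5370 to 11800). The 18-month D28 male replicate 4, the library with 2 day labels, was highest in *Ctsc* (6840 CPM, others 2280 to 2930). The 3-month D12 male replicate 2 was highest in *Ctsz* (5100 CPM, others 4630 to 4690). The 9-month D28 females gave the lowest values of *Ctsd* (replicate 3, 4050 CPM, others 5620 to 5900) and *Lamp2* (replicate 1, 550 CPM, others 707 to 722). In the edgeR fit of all 62 libraries, no test of a difference between sexes or ages in the change from naive passed for these genes.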

How the results depend on the processing

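Counts of the 10 genes that passed were recomputed under each alternative. Of these recounts, 438 were within 1.5 times the reported count, including counts of 0 that stayed 0, and 81 were not. At D12 at 3 months (7 reported), the count was 4 with totals alone as scaling, 3 with no filter, 1 against a 2-fold limit, 2 in females alone, 3 on uncorrected counts with no batch term, 2 on the first collection day and 3 on the second. At 9 months (1 reported) it was 2 with DESeq2 size factors, with totals alone, on uncorrected counts with or without collection day as a term, and with the library of 2 day labels left out or placed at D12. It was 3 with DESeq2, on the first collection day, without the 2 naive libraries of lowest short-to-long index and with that index as a covariate. At 18 months (6 reported) it was 3 with no filter, on uncorrected counts with no batch term and on the first collection day, 1 against a 2-fold limit and 2 in females alone. At D28 at 3 months (1 reported) the count was 0 with no filter, against a 2-fold limit, in either sex alone and on either collection day, 3 with DESeq2, 4 when only the libraries compared were fitted, and 2 under both index settings. At 9 months (0 reported) it was 1 with DESeq2, its size factors and totals alone. At 18 months (3 reported) it was 1 with no filter and with uncorrected counts and no batch term, 6 with DESeq2 and on the second collection day, and 0 against a 2-fold limit, in either sex alone and on the first collection day. For D28 against D12 (4 over the 3 ages) it was 8 with totals alone and without the 2 naive libraries of lowest index, 2 with no filter and with the excluded 18-month library included, 10 with DESeq2, 1 against a 2-fold limit and in females alone, 7 without the library of 2 day labels and with the index as a covariate, and 0 on the first collection day. Between ages at D12 (0 reported) it was 1 with DESeq2, with the library of 2 day labels placed at D12 and without the 2 naive libraries. Between ages at D28 it was 1 when only the libraries compared were fitted, for age-by-day interactions 1 with DESeq2 and when only those libraries were fitted, and for sex-by-day interactions 1 on the second collection day. Fits within a collection day or sex use fewer libraries. For the other settings the cause was not tested.

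With single libraries left out, the count ranged from 4 to 7, 1 to 3 and 6 to 6 at D12 at 3, 9 and 18 months, from 0 to 3, 0 to 1 and 2 to 3 at D28, and from 3 to 7 for D28 against D12. It ranged from 0 to 2 between ages at D12 and stayed at 0 between ages in naive retinas and at D28 and for both kinds of interaction. The count at 3 months fell to 4 without D12 male replicate 2 or naive male replicate 3, and that of D28 against D12 rose to 7 without the 9-month D12 male replicate 2. *Cst3* at D12 passed in every one of these fits, with log2 fold changes from -2.34 to -2.12 at 3 months, -3.06 to -2.3 at 9 months and -2.39 to -2.14 at 18 months. With the replicate block, the counts were 6, 1 and 6 at D12, 1, 0 and 2 at D28 and 5 for D28 against D12, and 0 elsewhere. The block ended the calls of *Lamp2* at D12 at 3 months (adjusted p = 0.0512) and of *Ctss* at D28 at 18 months (0.0678). The replicate numbers share only a number, and 6.47% of same-number pairs correlated over 0.1. Totals alone as scaling moved the median of all genes by -0.11 and -0.14 at D12 at 3 and 18 months and by -0.13 at D28 at 3 months.

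Reversals were confined, among the settings run, to values that had not passed. At D12 at 3 months, *Ctsc* was -0.33 in females. At D12 at 9 months, *Ctsl* was 0.02 in males and 0.28 on the first collection day. *Lamp1* was 0.01 with DESeq2 and with its size factors, 0 with no filter and without the library of 2 day labels, 0.1 in males, 0.14 on uncorrected counts with no batch term, 0.39 on the first collection day and without the 2 naive libraries, and 0.13 with the index as a covariate. *Lamp2* was -0.01 in males and -0.06 on the second collection day. At D12 at 18 months, *Ctsd* was -0.08 in females, -0.02 on uncorrected counts with no batch term and -0.56 on the first collection day. *Ctsl* was -0.08 with totals alone, -0.23 in males and -0.12 on the second collection day, *Cd68* was -0.1 with totals alone and on the second collection day and -0.19 in males, and *Lamp1* was -0.19 on the first. At D28 at 3 months, *Ctsc* was -0.1 in females and *Lamp2* was 0.03 in males and 0.05 without the 2 naive libraries. At D28 at 9 months, *Ctsb* was 0.25 in females, 0.07 on the first collection day, 0.7 without the 2 naive libraries and 0.27 with the covariate. *Ctsc* was 0.59 in females, 0.04 on uncorrected counts with no batch term, 0.61 on the first collection day and 0.47 without the 2 naive libraries, and *Ctsd* was 0 on uncorrected counts with no batch term. *Lamp1* was 0.12 in females, 0.35 without the 2 naive libraries and 0.16 with the covariate, *Lamp2* was 0.03 in females and 0.06 without them, and *Cd68* was -0.02 with totals alone, -0.31 on the first collection day and -0.03 with the covariate. At D28 at 18 months on the first collection day, *Ctsd* was -0.17, *Lamp1* -0.07 and *Lamp2* -0.12. With single libraries left out, values that crossed 0 ranged at D12 at 9 months from -0.01 to 0.55 (*Ctsd*), -0.26 to 0.04 (*Ctsl*), -0.24 to 0.36 (*Lamp1*) and -0.03 to 0.53 (*Lamp2*), and at 18 months from -0.26 to 0.52 (*Ctsd*), -0.05 to 0.12 (*Ctsl*) and -0.04 to 0.12 (*Cd68*). At D28 they ranged from -0.16 to 0.05 at 3 months (*Lamp2*), and at 9 months from -0.41 to 0.67 (*Ctsb*), -0.3 to 0.45 (*Ctsc*), -0.07 to 0.5 (*Ctsd*), -0.29 to 0.33 (*Lamp1*) and -0.53 to 0.04 (*Lamp2*). Depth did not limit these genes, whose lowest count was 626.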

Other observations

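A pair of libraries entered none of the report's comparisons, the 18-month one being used in an alternative setting only, and their uncorrected levels are given beside those of the other retinas of their labelled group. The 18-month D28 library labelled female replicate 1, with *Xist* at 0 CPM and Y-linked genes at 256 CPM, held 7310 CPM of *Cst3* (28100 to 44900 in the other 3), 14700 CPM of *Ctsb* (4060 to 10500) and 10800 CPM of *Ctsc* (1300 to 3800). The 9-month male D28 replicate 1 held 21900 CPM of *Cst3* (32600 to 75200 in the other 3), 14000 CPM of *Ctsb* (2030 to 9220) and 4360 CPM of *Ctsc* (920 to 4830).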
